A study of Mus musculus with 8 samples.

Results

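Of the 24976 gene symbols in the count table, 8 were examined here, chosen by name and over all 8 libraries: the DNA methyltransferases Dnmt1, Dnmt3a and Dnmt3b, the maintenance factor Uhrf1, the dioxygenases Tet1, Tet2 and Tet3, and the histone methyltransferase Ezh2. All 8 were in the table and all 8 passed the filter on low counts that left 12742 genes for testing. The libraries are bulk RNA-seq of mouse CD8+ T cells, isolated as naive cells and then activated in culture with anti-CD3, anti-CD28 and IL-2, which every group received. The 4 groups of 2 libraries each were wild-type (WT) cells at 24 h, WT cells at 48 h, and cells labelled dKO at 24 h and at 48 h. The dKO cells came from Cd8Cre Nr4a1 flox/flox Nr4a2 flox/flox mice, in which a Cre recombinase driven by Cd8 sequences acts on floxed alleles of the nuclear receptor genes Nr4a1 and Nr4a2, and the WT cells came from littermates. The comparisons ask how the enzymes differ with the genotype label at each time, and between 24 and 48 h of activation within each label.

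Methyl groups on CpG cytosines are copied to the new strand after replication by DNMT1, which UHRF1 guides to half-methylated sites. DNMT3A and DNMT3B place new marks, and the TET enzymes oxidise methylcytosine, which leads to its loss. EZH2 is the main catalytic subunit of Polycomb repressive complex PRC2, which methylates lysine 27 of histone H3. In CD8+ T cells, DNMT3A, TET2 and EZH2 are known to take part in the choice between effector and memory fates.

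Total counts ran from 5000952 to 21686236 per library, and a count of 0 allows up to 0.158 to 0.558 CPM (counts per 1000000 counts, with TMM scaling), 3 counts in each library, which covers counting error only. The labels do not say whether the 2 libraries of a group came from separate animals or cultures, so p-values measure only the spread between libraries. The counts did not check the deletion. Nr4a1 was at 276 to 881 CPM in WT and 506 to 669.5 CPM in dKO libraries, and Nr4a2 was higher in dKO (log2 fold change 1.35, adjusted p = 0.00836 at 24 h, and 1.38, adjusted p = 0.00982 at 48 h), so dKO below is the label. Over total counts, without TMM scaling, WT libraries had 323 to 805 CPM of Xist and 1.28 to 1.75 CPM of the summed Y-linked genes, where dKO libraries had 0.72 to 1.8 CPM and 131 to 175 CPM. The sex of the source animals and the genotype label cannot be told apart. Of 21 markers of other cells in the table, Lyz2, Ncr1, Hbb-bs and Hba-a1 had 0 counts in every library, Cd4 had 0 to 2, and the B cell markers Cd79a and Ms4a1 had 0 to 3 and 0 to 1. The 5 with more than 11 counts in some library were Cd79b (3.16 to 6.46 CPM), Foxp3 (1.34 to 3.51 CPM), Pecam1 (4.68 to 9.80 CPM), Pf4 (0.881 to 2.90 CPM) and Cd14 (3.06 to 12.3 CPM), of which Cd14 and Pf4 rose with time in WT (1.56, adjusted p = 0.00287, and 1.48, adjusted p = 0.0311). Scaled by total counts alone, without TMM, the 7 CD8 T cell markers summed to 1230.3 to 2426 CPM. On that scale without TMM, the summed myeloid markers were at 9.50 and 11.3 CPM in WT 48 h and at 4.12 to 5.06 CPM elsewhere. Their part in the results was not tested. In bulk RNA, fewer cells of a type and less RNA per cell cannot be told apart. The WT 48 h libraries differed from each other more than those of any other group: the median absolute log2 difference between replicates was 0.364 there and 0.149 to 0.195 in the other 3 groups. For the 8 enzymes that median was 0.812 in WT 48 h and 0.115 to 0.182 elsewhere, so most results below that rest on WT 48 h are also given without 1 of these libraries. A fit without 1 library of a group sets the 1 that is left against the others. That group then adds no spread, so p-values and calls of such fits rest on the spread of the other groups.

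**Figure D1:**
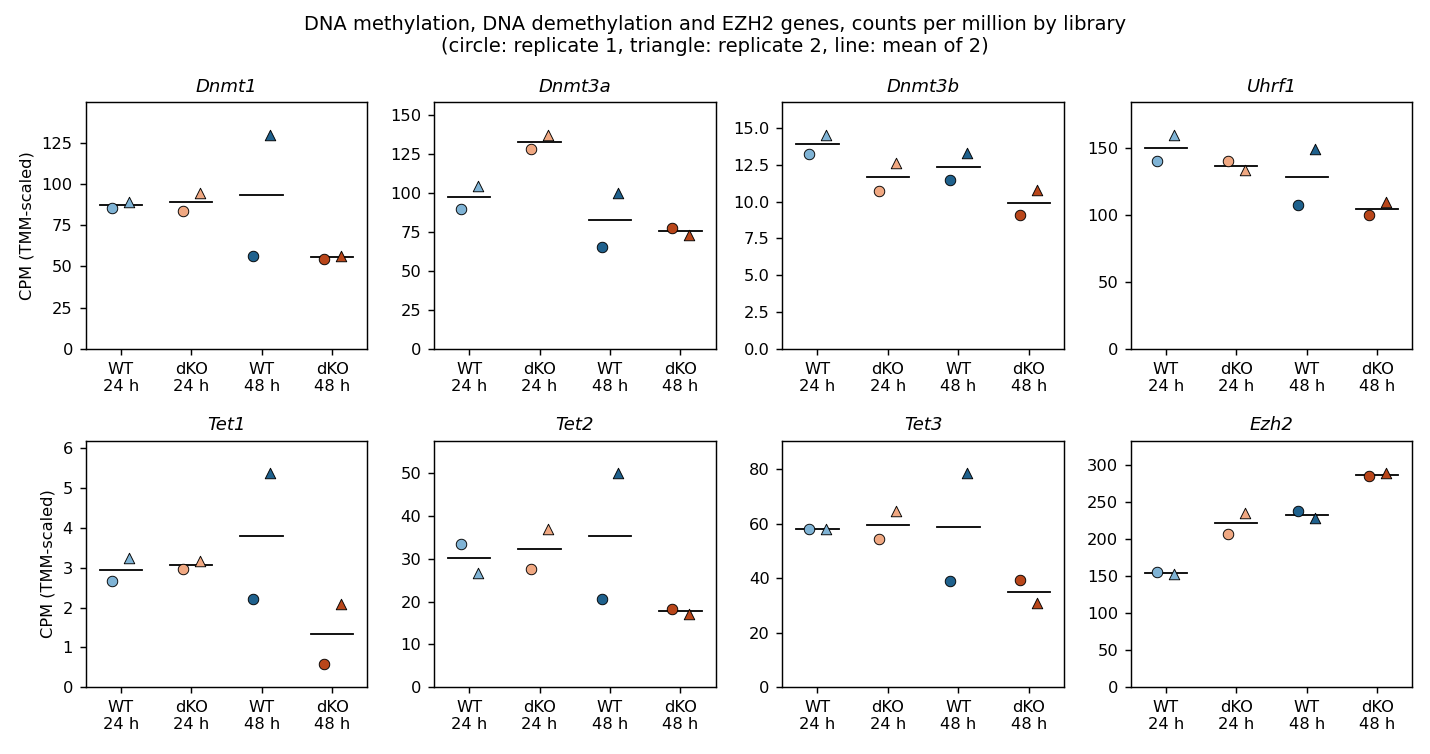
TMM-scaled CPM of the 8 enzymes in each of the 8 libraries, with a line at the mean of the 2 libraries of a group. The 2 WT 48 h libraries lie far apart for Dnmt1 (56.2 and 129.9 CPM), Tet2 (20.5 and 49.98 CPM) and Tet3 (39.0 and 78.7 CPM), and close together for Ezh2 (238 and 228 CPM).

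Ezh2, which lies at chromosome 6, 47530139 to 47595341, minus strand (GRCm38/mm10, GENCODE M21), was the only 1 of the 8 enzymes called in any comparison of the fit to all 8 libraries. It rose from 24 to 48 h in WT cells and was higher in dKO than in WT cells over both times. Its promoter window is shown with those of Dnmt1 and Uhrf1, because these are the windows among the 13 of the 8 genes that hold a short E2F motif, the DNA word read by a family of cell cycle transcription factors. Each is 300 bases from RefSeq (GRCm38.p6), on the strand of the gene, from 250 bases before to 50 after an annotated start site, with the E2F words in capitals.
Ezh2 chr6:47594981-47595280, minus strand: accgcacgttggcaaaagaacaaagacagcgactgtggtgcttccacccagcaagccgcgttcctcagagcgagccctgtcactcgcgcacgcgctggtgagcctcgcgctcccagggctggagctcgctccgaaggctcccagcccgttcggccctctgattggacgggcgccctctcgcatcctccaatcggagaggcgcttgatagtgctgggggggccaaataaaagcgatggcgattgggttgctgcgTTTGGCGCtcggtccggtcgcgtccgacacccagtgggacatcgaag
Dnmt1 chr9:20952574-20952873, minus strand, at a start site inside the longer annotated gene: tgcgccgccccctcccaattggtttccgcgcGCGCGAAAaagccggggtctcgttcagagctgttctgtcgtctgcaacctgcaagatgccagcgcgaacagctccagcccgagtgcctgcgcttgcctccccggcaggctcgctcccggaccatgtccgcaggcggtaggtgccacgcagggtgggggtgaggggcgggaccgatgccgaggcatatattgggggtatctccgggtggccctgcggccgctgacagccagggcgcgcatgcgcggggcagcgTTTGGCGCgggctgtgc
Uhrf1 chr17:56304063-56304362, plus strand: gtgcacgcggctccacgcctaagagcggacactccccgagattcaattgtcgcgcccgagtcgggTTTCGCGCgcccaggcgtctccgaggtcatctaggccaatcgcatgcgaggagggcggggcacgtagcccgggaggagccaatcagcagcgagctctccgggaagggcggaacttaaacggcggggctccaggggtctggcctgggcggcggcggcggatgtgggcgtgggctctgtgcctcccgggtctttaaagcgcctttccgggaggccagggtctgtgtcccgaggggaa

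The words searched were TTTCCCGC, TTTCGCGC, TTTGCCGC and TTTGGCGC on both strands, and 2.26% of 32851 mouse promoter windows hold at least 1 of them. The Ezh2 window has TTTGGCGC, which begins 3 bases after the start site. The Dnmt1 window has TTTCGCGC on the opposite strand, 219 bases before the start site, and TTTGGCGC 33 bases after it, and the Uhrf1 window has TTTCGCGC 185 bases before its start site. The 8-base word AAAGGTCA, bound by NR4A receptors as monomers, is in 1.51% of all windows and in 0 of the 13 windows of these genes. Such a match is a description of letters, and its absence says nothing about NR4A binding. The 3 windows are rich in CpG, with 31 in Ezh2, 33 in Dnmt1 and 33 in Uhrf1, against a median of 7 over all windows. Each word searched itself holds a CpG. Windows of these genes without such a word held from 2 (Dnmt1) to 57 (Tet2), with 46 and 47 in Dnmt3a, so the richness is not particular to the 3.

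Ezh2 was at 156 and 154 CPM in the 2 WT 24 h libraries, at 207.5 and 236 CPM in dKO 24 h, at 238 and 228 CPM in WT 48 h and at 285 and 289.7 CPM in dKO 48 h. The 2 libraries of each group lay close together, and these values rest on 1046 to 4336 counts. The order of group means was WT 24 h (155 ± 1.96, SD, n = 2), dKO 24 h (222 ± 20.3), WT 48 h (233 ± 6.94) and dKO 48 h (287 ± 3.39). The neighbours dKO 24 h and WT 48 h overlap and do not differ beyond their spread, while the other neighbours do not overlap.

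In WT cells Ezh2 rose 1.5-fold from 24 to 48 h (log2 fold change 0.59, SE 0.147, adjusted p = 0.0291, edgeR's quasi-likelihood test). It was the 1 called enzyme of 8 in that comparison, where 11.4% of all tested genes were called. In dKO cells the estimate was 1.30-fold (log2 fold change 0.37, SE 0.146, adjusted p = 0.169), with both 48 h libraries above both 24 h libraries. The call in WT was lost when only the 2 WT groups were fitted (adjusted p = 0.210), with scaling by library size alone (0.23, adjusted p = 0.322), and without any single 24 h or dKO 48 h library (adjusted p = 0.082 to 0.138). The interaction of genotype and time for Ezh2 was -0.22 (SE 0.207, adjusted p = 0.654), so the rises in the 2 genotypes were not shown to differ.

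Over both times Ezh2 was 1.33-fold higher in dKO than in WT (log2 fold change 0.41, SE 0.104, adjusted p = 0.0412). It was again the 1 called enzyme of 8, against 7.8% of all tested genes. The difference was 0.52 (SE 0.147, adjusted p = 0.277) at 24 h, where the fold was 1.43, and 0.30 (SE 0.146, adjusted p = 0.179) at 48 h, where it was 1.23, and at each time both dKO libraries lay above both WT libraries. The call over both times was lost without any single 24 h or dKO 48 h library (adjusted p = 0.0896 to 0.197). At 24 h, where 0 of 8 enzymes and 0.432% of all genes were called by edgeR, leaving out both WT 48 h libraries, a choice made after seeing the data, gave 0.49 (adjusted p = 0.0326) for Ezh2 and called 2.78% of all genes. Genes of G2 and mitosis had estimates above 0 for 21 of 21 at 24 h (median 0.58, 14 at an unadjusted p below 0.05, 1 called). Over both times 18 of 21 were above 0 (median 0.29, 4 called). The 48 h difference was above 0 for 11 of these genes and below 0 for 10 (median 0.05, 0 called). Their part in the Ezh2 values was not tested. At 24 h 2 enzymes, Ezh2 and Dnmt3a, were higher in dKO at an unadjusted p below 0.05, 0 were lower, and DESeq2 called 0. Of the 8 enzymes, 2 (Ezh2 and Dnmt3a) had both dKO libraries above both WT libraries at 24 h and 1 (Dnmt3b) had both below, beside 24.3% and 20.6% of all tested genes. With time in WT, 1 (Ezh2) lay above without overlap and 0 below, beside 22.7% and 24.4% of all tested genes.

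Dnmt1 (chromosome 9, 20907209 to 20959888, minus strand) and Uhrf1 (chromosome 17, 56303321 to 56323486, plus strand) encode the pair that maintains methylation through replication. Neither was called in any of the 6 comparisons of the fit to all libraries. Dnmt1 was at 85.3 and 88.9 CPM in WT 24 h and at 83.5 and 94.4 CPM in dKO 24 h. At 48 h it was at 56.2 and 129.9 CPM in WT and at 54.6 and 56.4 CPM in dKO. The groups overlapped at 24 h, both dKO 48 h libraries lay below both dKO 24 h libraries, and the 2 WT 48 h libraries lay on either side of all 24 h libraries.

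The genotype difference of Dnmt1 was 0.03 (SE 0.302) at 24 h and -0.76 (SE 0.304, adjusted p = 0.118) at 48 h. The 48 h value rested on WT replicate 2. Without it the difference was -0.009, and without WT replicate 1 it was -1.24, each time with 1 WT 48 h library left. The time change in WT turned its sign in the same way, at -0.64 without WT 48 h replicate 2 and 0.59 without replicate 1.

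Uhrf1 was at 140.5 and 160.4 CPM in WT 24 h and at 140.6 and 133.8 CPM in dKO 24 h. At 48 h it was at 107.8 and 149.3 CPM in WT and at 99.9 and 109.9 CPM in dKO. Both dKO 48 h libraries were below both dKO 24 h libraries, and the genotypes overlapped at each time. Its time change in dKO was -0.39 (SE 0.179, adjusted p = 0.227) and its genotype difference -0.13 at 24 h and -0.30 (adjusted p = 0.268) at 48 h. The 48 h difference was -0.52 without WT replicate 1 and -0.030 without WT replicate 2. The ratio of Uhrf1 to Dnmt1 counts ran from 1.1 to 1.95 over the 8 libraries, and that of Ezh2 to Dnmt1 counts from 1.73 to 5.22.

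Of the methyltransferases that place new marks, Dnmt3a (chromosome 12, 3806007 to 3914443, plus strand) was at 90.2 and 104.4 CPM in WT 24 h and at 128.8 and 137.7 CPM in dKO 24 h. At 48 h it was at 65.4 and 100.3 CPM in WT and at 77.9 and 73.1 CPM in dKO. Both dKO libraries lay above both WT libraries at 24 h, the genotypes overlapped at 48 h, and both dKO 48 h libraries lay below both dKO 24 h libraries. The genotype difference was 0.45 (SE 0.197, adjusted p = 0.707) at 24 h, a 1.37-fold difference, and -0.14 (SE 0.198, adjusted p = 0.642) at 48 h. The 24 h difference ran from 0.35 to 0.55 when single libraries were left out. Without both WT 48 h libraries, which are not part of that comparison, it was 0.43 (adjusted p = 0.0503). That fit called 2.78% of all genes at 24 h, against 0.432% in the fit to all libraries. At 48 h the direction turned, to 0.21, without WT replicate 2.

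The larger time change of Dnmt3a was in dKO cells, at -0.82 (SE 0.199, adjusted p = 0.0550), a fold of 0.567. It missed the threshold in the fit to all libraries and passed it with DESeq2 (-0.79, adjusted p = 0.0225). In WT the time change was -0.22 (SE 0.197, adjusted p = 0.540), and the interaction was -0.60 (SE 0.279, adjusted p = 0.421). The interaction was -0.86 without WT 48 h replicate 1 and -0.22 without replicate 2.

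Dnmt3b (chromosome 2, 153649450 to 153687730, plus strand), the other enzyme of this kind, was at 13.2 and 14.5 CPM in WT 24 h and at 10.7 and 12.6 CPM in dKO 24 h. At 48 h it was at 11.4 and 13.3 CPM in WT and at 9.08 and 10.8 CPM in dKO. Both dKO libraries were below both WT libraries at each time, by -0.26 (SE 0.195, adjusted p = 0.881) at 24 h and -0.33 (SE 0.193, adjusted p = 0.262) at 48 h, and neither difference was called. Dnmt3b was the 1 enzyme of 8 whose 24 and 48 h libraries overlapped in dKO. The ratio of Dnmt3a to Dnmt3b counts ran from 5.72 to 12.01 over the libraries.

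The 3 TET genes were not called in any comparison of the fit to all libraries, and Tet2 and Tet3 differed more between the 2 WT 48 h libraries than between those of any other group. Tet2 (chromosome 3, 133463679 to 133545139, minus strand), which is often mutated in blood cancers, was at 33.4 and 26.7 CPM in WT 24 h and at 27.7 and 36.99 CPM in dKO 24 h. At 48 h it was at 20.5 and 49.98 CPM in WT and at 18.3 and 17.1 CPM in dKO. Tet3 (chromosome 6, 83362373 to 83459084, minus strand), a second enzyme of the family, was at 58.3 CPM in both WT 24 h libraries and at 54.5 and 64.9 CPM in dKO 24 h, at 39.0 and 78.7 CPM in WT 48 h, and at 39.3 and 30.9 CPM in dKO 48 h. For both genes the genotypes overlapped at 24 h and the 2 dKO 48 h libraries lay below the 2 dKO 24 h libraries. At 48 h both dKO libraries lay below both WT libraries for Tet2 and overlapped with them for Tet3.

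Tet1 (chromosome 10, 62804570 to 62908996, minus strand) was close to the limit of detection, with 4 to 102 counts per library. It was at 2.67 and 3.23 CPM in WT 24 h, 2.95 and 3.16 CPM in dKO 24 h, 2.22 and 5.37 CPM in WT 48 h and 0.595 and 2.08 CPM in dKO 48 h. At 48 h both dKO libraries lay below both WT libraries, and the 4 libraries at 24 h overlapped.

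At 48 h the genotype differences were -1.58 for Tet1 (SE 0.527, adjusted p = 0.0787), -1.03 for Tet2 (SE 0.348, adjusted p = 0.0820) and -0.77 for Tet3 (SE 0.281, adjusted p = 0.0971). At 24 h the 3 differences were 0.03 to 0.09. In the fit to all libraries edgeR called 0 of the 8 enzymes at 48 h, where 11.2% of all genes were called. At an unadjusted p below 0.05, for which the share of all genes was not counted, 4 were lower in dKO (Dnmt1, Tet1, Tet2 and Tet3) and 0 higher. DESeq2 called 1, Tet2 (-1.01, adjusted p = 0.0426). Both dKO libraries lay below both WT libraries for 3 (Dnmt3b, Tet1 and Tet2) and above for 1 (Ezh2), beside 28.6% and 28.3% of all tested genes. Without WT 48 h replicate 1, which leaves 1 WT 48 h library, Tet1 was at -1.96, Tet2 at -1.51 and Tet3 at -1.18. Without WT 48 h replicate 2, Tet1 was at -0.67, Tet2 at -0.20 and Tet3 at -0.15. Tet1 was at -2.77 without dKO 48 h replicate 2. The 48 h genotype values of these genes therefore depended on which of the 2 WT libraries was used. These libraries were not alike in depth or content. WT 48 h replicate 2 had 21686236 total counts, against 5000952 to 8278058 in all other libraries. The share of the ribosomal protein genes (Rpl and Rps) was 7.04% in WT 48 h replicate 2, against 10.9987% to 13.4124% in all other libraries. The part of depth and of this share in the values was not tested.

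**Figure D2:**
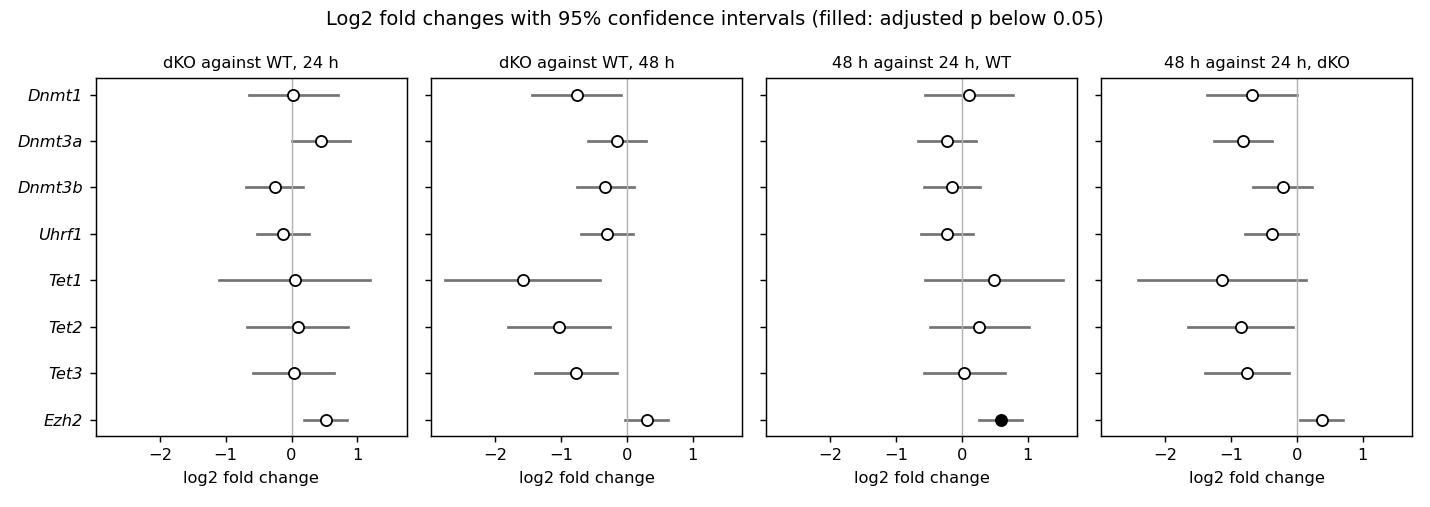
Log2 fold changes of the 8 enzymes in the genotype comparisons at 24 and 48 h and the time comparisons in WT and dKO, with bars for 95% intervals from edgeR, filled where the adjusted p was below 0.05. The rise of Ezh2 in WT (0.59) is the 1 filled point, and the TET genes and Dnmt1 lie below 0 at 48 h with wide bars.

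The difference between the WT 48 h replicates followed transcript length over all genes. The genes with an annotated coding transcript, 11044 in number, were put in 5 bins by the length of the longest one. From the shortest to the longest bin, the median log2 difference of WT 48 h replicate 2 minus replicate 1 was -0.38, -0.17, -0.03, 0.15 and 0.44, while in the other 3 groups every bin lay between -0.04 and 0.06. Across genes, Spearman's rho with length was 0.53 in WT 48 h and -0.05 to 0.10 in the other groups, with genes not being independent replicates. The 5 enzymes of the longest bin, Dnmt1 (5870 bases), Dnmt3a (9685), Tet1 (14369), Tet2 (9179) and Tet3 (10904), differed between these replicates by 1.21, 0.61, 1.19, 1.28 and 1.01. Dnmt3b (4320 bases) and Uhrf1 (3586) differed by 0.21 and 0.47, and Ezh2 (2787 bases), which is in the middle bin, by -0.06.

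The genotype difference at 48 h followed length too, with medians of 0.38, 0.19, 0.03, -0.16 and -0.45 from the shortest to the longest bin, and so did the time change in dKO, with 0.19, 0.08, -0.002, -0.08 and -0.28. The second comparison sets dKO libraries against dKO libraries, whose replicates showed no such trend. In a fit added after seeing the data, a trend of each library on transcript length was taken out as an offset. The 48 h genotype difference was then -0.43 for Dnmt1, -0.44 for Tet2 and -0.12 for Tet3, none of them called. That of Dnmt3a turned to 0.41 (adjusted p = 0.0695), and that of Ezh2 was 0.22 (adjusted p = 0.290). Over both times this fit called Ezh2 (0.36, adjusted p = 0.0252) and Dnmt3a (0.45, adjusted p = 0.0108) higher in dKO, beside 9.61% of all genes. Whether length is the cause of the differences was not tested.

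**Figure D3:**
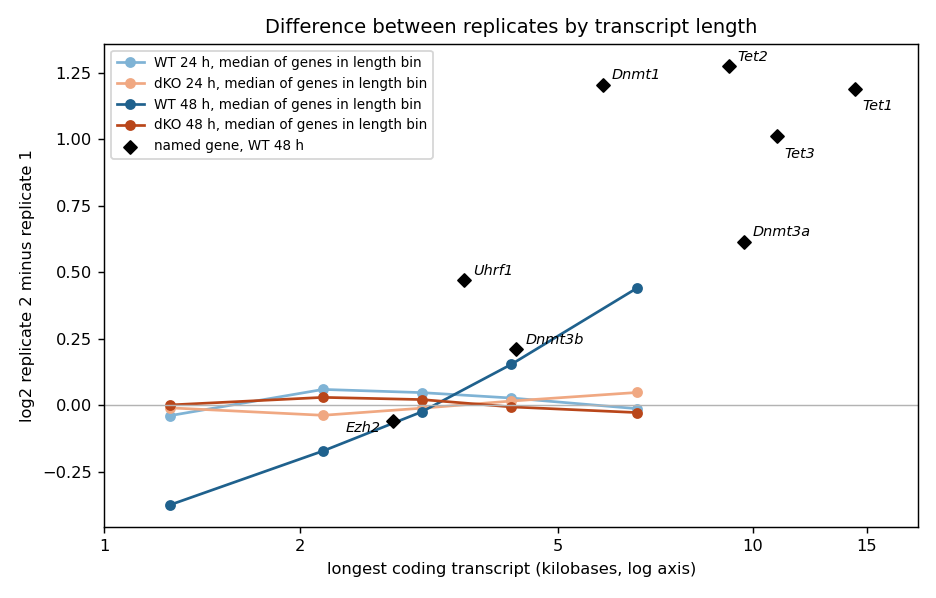
Median log2 difference between replicate 2 and replicate 1 in 5 bins of transcript length, 1 line per group, with the 8 enzymes in WT 48 h as points at their own length in bases (log axis). The WT 48 h line climbs from -0.38 to 0.44, the other lines stay between -0.04 and 0.06, and Dnmt1, Tet1, Tet2 and Tet3 lie above the WT 48 h line at 1.01 to 1.28.

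The replicates agreed most closely in the comparison of 48 with 24 h in dKO cells. There 6 enzymes, Dnmt1, Dnmt3a, Uhrf1, Tet1, Tet2 and Tet3, had both 48 h libraries below both 24 h libraries, Ezh2 had both above, and Dnmt3b overlapped. Over all tested genes 33.5% lay below without overlap and 32.8% above. In the fit to all 8 libraries edgeR called 0 of the 8, against 3.63% of all genes, with 1 higher (Ezh2) and 3 lower (Dnmt3a, Tet2 and Tet3) at an unadjusted p below 0.05, and DESeq2 called 1, Dnmt3a. The median log2 fold change of the 8 was -0.72, beside -0.01 over all tested genes.

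That fit takes its spread from all 4 groups, WT 48 h included. With the dKO groups alone, as planned, 7 of the 8 were called: Ezh2 higher (0.37, adjusted p = 9.3e-05), and Dnmt1, Dnmt3a, Uhrf1, Tet1, Tet2 and Tet3 lower, with adjusted p from 4.36e-12 (Dnmt3a) to 0.0294 (Tet1). Without the 2 WT 48 h libraries, 6 were called. Ezh2 was at 0.37 (adjusted p = 0.0247), Dnmt1 at -0.68 (adjusted p = 0.000817), Dnmt3a at -0.82 (adjusted p = 0.000334), Uhrf1 at -0.39 (adjusted p = 0.0199), Tet2 at -0.84 (adjusted p = 0.00431) and Tet3 at -0.76 (adjusted p = 0.00182). The share of all genes called rose as well, from 3.63% to 37.3% with the dKO groups alone and to 25.7% without the WT 48 h libraries.

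With the length offset and without the WT 48 h libraries, 4 were called, beside 24.1% of all genes: Ezh2 higher (0.34, adjusted p = 0.0271), and Dnmt1 (-0.47, adjusted p = 0.00380), Dnmt3a (-0.38, adjusted p = 0.0168) and Uhrf1 (-0.36, adjusted p = 0.0206) lower. Tet2 (-0.43, adjusted p = 0.0508), Tet3 (-0.27, adjusted p = 0.0891) and Tet1 (-0.53, adjusted p = 0.447) were not. The offset brought the estimates of Dnmt1, Dnmt3a and the 3 TET genes closer to 0 and left those of Uhrf1 and Ezh2 nearly as they were. In WT the time change was of either sign for most of these genes, depending on the 48 h library. With WT 48 h replicate 1 alone, the estimates were -0.64 for Dnmt1, -0.58 for Dnmt3a, -0.49 for Uhrf1 and -0.59 for Tet3. With replicate 2 alone they were 0.59 for Dnmt1, 0.75 for Tet2 and 0.45 for Tet3. Each time the estimate of Ezh2 was above 0. The interaction of genotype and time was below 0 for 8 of 8 enzymes, with a median of -0.69 beside -0.04 for all genes. Over all genes it followed transcript length, with a median of 0.27 in the shortest bin and -0.41 in the longest. The longest bin is that of Dnmt1, Dnmt3a and the 3 TET genes. However, Dnmt3b (0.093) and Uhrf1 (0.12) were above 0 without WT 48 h replicate 2. They were also above 0 (0.12 and 0.028) with scaling by library size alone, which shifts the median of all genes by 0.19. EdgeR called 0 enzymes and 0% of all genes for it, with 1 enzyme, Tet2, lower at an unadjusted p below 0.05, and DESeq2 called 0. Without WT 48 h replicate 1, which leaves 1 WT 48 h library, the estimates of Dnmt1, Dnmt3a, Tet1, Tet2 and Tet3 were also below 0.

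**Figure D4:**
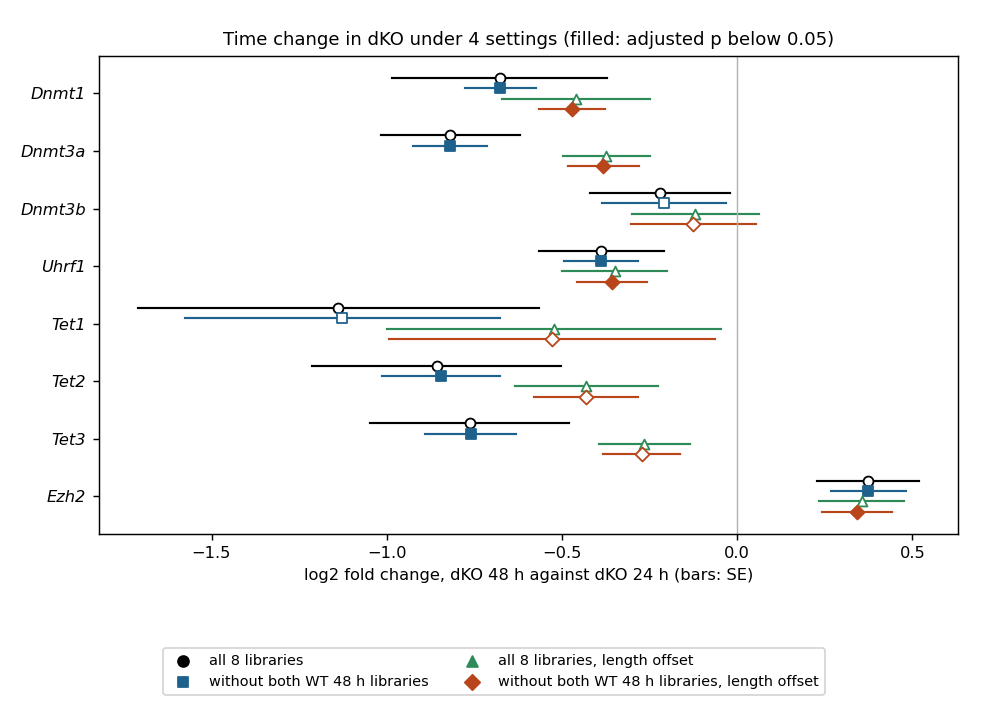
Log2 fold change from 24 to 48 h in dKO for the 8 enzymes with 4 settings of the fit, with bars of 1 SE, filled where the adjusted p was below 0.05. The estimates are alike with and without the WT 48 h libraries while the bars are shorter without them, and the length offset moves Dnmt3a from -0.82 to -0.38 and leaves Ezh2 at 0.34 to 0.37.

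Over the 8 libraries, log2 CPM of Dnmt1, Tet2 and Tet3 moved together (Pearson r = 0.960 to 0.964 for the 3 pairs), and Uhrf1 went with Dnmt1 (r = 0.874). Ezh2 ran the other way, with r = -0.494 against Dnmt1, -0.790 against Uhrf1 and -0.757 against Dnmt3b. These are descriptions over 8 points that share 4 groups and the length trend between the WT 48 h replicates. Of 9214 genes with a mean of at least 50 counts, 498 had r above 0.9 with Dnmt1, 415 with Tet2 and 467 with Tet3. Such an r is therefore not particular to these enzymes. The number was 252 for Uhrf1, 117 for Ezh2, 91 for Dnmt3a, 45 for Dnmt3b and 29 for Tet1. The genes most like Ezh2 included Psrc1 (r = 0.978) and Cdca4 (0.973). Those most like Dnmt1 were Topbp1 (0.994), C2cd3 (0.993) and Utp20 (0.991), those most like Tet2 were Tln1 (0.991), Baz1b (0.990) and Nup98 (0.989), and those most like Tet3 were Apc (0.997), Zfp729a (0.992) and Smurf2 (0.990). For Dnmt3a they were Hsph1 (0.982), Zbtb43 (0.979) and Rad18 (0.972), for Uhrf1 Pacs1 (0.990), Ythdf3 (0.984) and Taf4b (0.981), for Dnmt3b Brf1 (0.972), Ctdsp2 (0.968) and Sbk1 (0.966), and for Tet1 Dctn4 (0.966), Dync2h1 (0.946) and Phtf1 (0.945).

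EZH2 methylates histone H3 as part of PRC2, whose other subunits showed patterns of their own. Eed, which encodes the subunit that binds trimethylated lysine 27, was at 76.2 and 94.4 CPM in WT 24 h, 103 and 97.8 CPM in dKO 24 h, 88.5 and 69.99 CPM in WT 48 h and 98.7 and 102.9 CPM in dKO 48 h. It was not called in any comparison (time change -0.11 in WT and 0.01 in dKO). Ezh1, the less active paralogue of Ezh2, was at 6.76 to 10.3 CPM in all libraries and was not called either (time change -0.16 in WT and -0.22 in dKO). The ratio of Ezh2 to Ezh1 counts ran from 15.2 to 42.9. Suz12, the scaffold of the complex, was at 804 and 567 CPM in WT 24 h, 580 and 589 CPM in dKO 24 h, 1643 and 1731 CPM in WT 48 h and 861 and 816 CPM in dKO 48 h, so the WT 48 h libraries stood above all others.

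Suz12 rose in WT from 24 to 48 h (1.30, SE 0.204, adjusted p = 0.00281) and was lower in dKO at 48 h (-1.01, SE 0.203, adjusted p = 0.0163). The first call held without any single library and was lost with the WT groups fitted alone (adjusted p = 0.0811). The second call was lost without any single dKO library (adjusted p = 0.0550 to 0.192). Phf19, which helps bring PRC2 to chromatin, rose in WT (1.2, SE 0.229, adjusted p = 0.00773), a call lost without WT 24 h replicate 1 (adjusted p = 0.0984). Of the 12 PRC2 partners, 2 were called higher in WT over time (Suz12 and Phf19), beside 11.4% of all tested genes called in either direction. At 48 h 1 was called higher in dKO (Epop, 0.55, adjusted p = 0.0345, lost at 0.0651 to 0.284 without any 24 h or dKO 48 h library and at 0.0781 with the length offset) and 1 lower (Suz12). Of all tested genes 11.2% were called at 48 h. The list's median was -0.16 at 48 h and -0.009 for time in WT, beside -0.03 and 0.002 for all genes.

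The values of Suz12 moved in near-fixed proportion to those of Uhrf2, the paralogue of Uhrf1 that does not replace it in maintenance, and of Ehmt2, which encodes the histone H3 lysine 9 methyltransferase G9a. The ratio of Suz12 to Uhrf2 counts was 5.86 to 6.60 over the 8 libraries and that of Ehmt2 to Uhrf2 counts 2.08 to 2.45, while that of Suz12 to Eed counts was 5.63 to 24.7. Uhrf2 was at 253 and 294 CPM in WT 48 h and at 95.3 to 139 CPM in the other libraries, and Ehmt2 at 578 and 696 CPM against 206 to 321 CPM. Both rose in WT (1.29, adjusted p = 0.00258, and 1.33, adjusted p = 0.00258) and were lower in dKO at 48 h (-1.06, adjusted p = 0.0147, and -1.03, adjusted p = 0.0156). These 48 h calls were lost without dKO 48 h replicate 1 (adjusted p = 0.137 and 0.139) or replicate 2 (both 0.191). The S phase genes Ccne1 and Cdt1 held such proportions as well (1.79 to 2.29 and 0.90 to 1.24 times Uhrf2). Why counts of these genes keep 1 ratio was not tested.

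**Figure D5:**
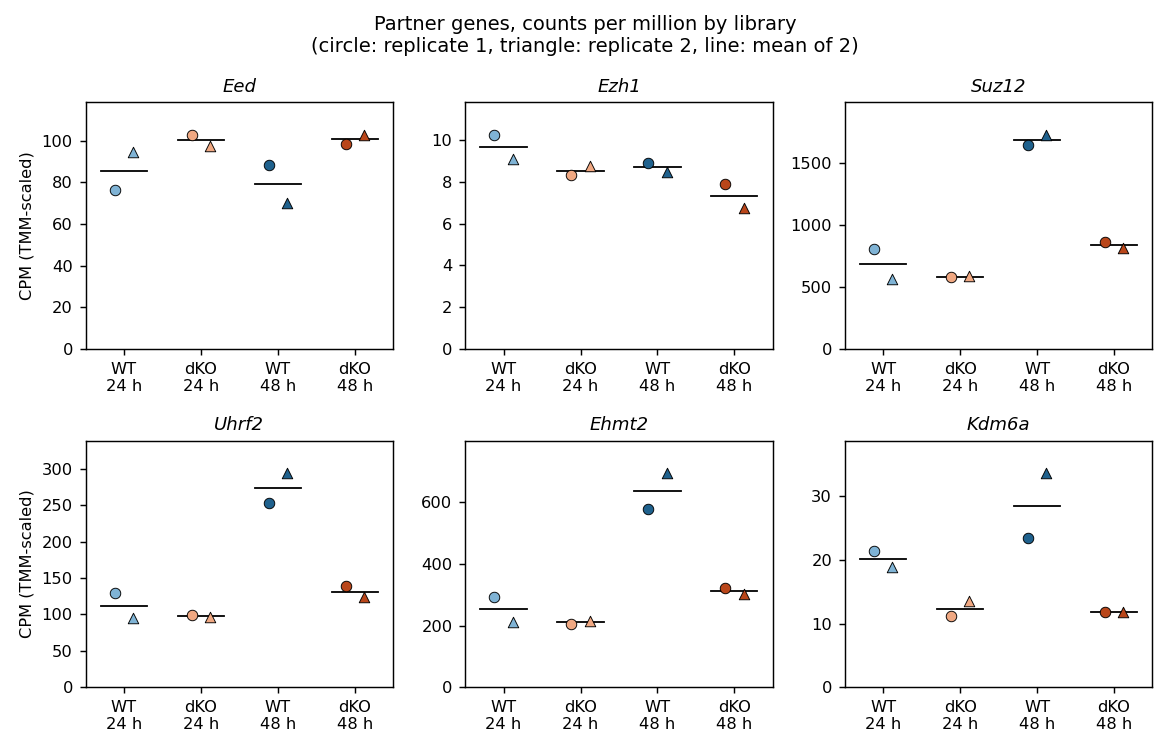
TMM-scaled CPM by library of Eed, Ezh1, Suz12, Uhrf2, Ehmt2 and Kdm6a, with a line at the mean of the 2 libraries of a group. Suz12, Uhrf2 and Ehmt2 share 1 pattern with WT 48 h on top, Eed and Ezh1 stay within a narrow range, and Kdm6a is lower in all 4 dKO libraries than in the 4 WT libraries.

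The 2 enzymes that remove the mark placed by EZH2 went different ways. Kdm6a, on the X chromosome (18162575 to 18279936) and known to escape X inactivation, was at 21.5 and 18.9 CPM in WT 24 h and 23.4 and 33.7 CPM in WT 48 h, against 11.2 and 13.6 CPM in dKO 24 h and 11.9 and 11.8 CPM in dKO 48 h. It was lower in dKO at 48 h (-1.28, SE 0.213, adjusted p = 0.0147) and over both times (-1.0, SE 0.153, adjusted p = 0.0108). It moved with Xist and the Y-linked genes, so sex and genotype label cannot be told apart for it. Its 48 h call was lost without dKO 48 h replicate 1 or 2 (adjusted p = 0.137 and 0.191) and that over both times without dKO 24 h replicate 1 or either dKO 48 h library (adjusted p = 0.0802 to 0.0886). Kdm6b, which is on an autosome, was at 36.3 to 49.6 CPM in the 24 h libraries and at 17.8 to 27.3 CPM in the 48 h libraries. It fell with time in WT (-0.86, SE 0.228, adjusted p = 0.0392) and in dKO (-1.12, SE 0.234, adjusted p = 0.0329). The first call was lost without any single library outside WT 48 h (adjusted p = 0.0595 to 0.254) and the second without any single dKO library (0.135 to 0.309).

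Among 10 tested partners of DNA methylation, Uhrf2 and Ehmt2 were the 2 called in any comparison. Of the 14 tested partners of DNA demethylation, Idh1, whose product makes the 2-oxoglutarate that TET enzymes use, was called higher with time in dKO (2.70, SE 0.467, adjusted p = 0.0154, lost without any single dKO library at 0.0775 to 0.234). It was at only 0.328 to 0.744 CPM at 24 h and at 3.12 to 3.42 CPM in dKO 48 h. Idh2, its mitochondrial counterpart, fell with time in WT (-0.64, adjusted p = 0.0248, lost without any single library outside WT 48 h at 0.0555 to 0.147). The base excision repair gene Apex1 was higher in dKO at 48 h (0.54, adjusted p = 0.0381), at 0.16 (adjusted p = 0.446) with the length offset and lost without any single library outside WT 48 h (0.0593 to 0.231).

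Of the 7 readers of methylated CpG, Mbd1 rose with time in WT (0.80, adjusted p = 0.0223) and Zbtb4 fell (-1.54, adjusted p = 0.0176). The Mbd1 call was lost without WT 24 h replicate 2 (0.225) or any dKO library (0.0506 to 0.0557), and that of Zbtb4 without WT 24 h replicate 1 (adjusted p = 0.158) or replicate 2 (adjusted p = 0.0508). Of the 15 genes that supply methyl donors, 0 were called by edgeR in the 6 comparisons, and 0 by DESeq2. Those with an unadjusted p below 0.05 were 0 at 24 h, 3 higher at 48 h, 3 higher over both times, 0 in the interaction, 2 higher and 4 lower with time in WT, and 1 higher and 3 lower with time in dKO. Mat2a, which makes S-adenosylmethionine, was at 320.3 to 363.5 CPM and Ahcy, which clears its product, at 69.5 to 92.9 CPM over the 8 libraries.

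Dnmt1, Uhrf1 and Ezh2 are known to rise in dividing cells, so cell cycle genes are given beside them. Of 21 genes of G2 and mitosis, 21 were called higher with time in WT (median 1.56) and 14 in dKO (median 0.79), and none lower. These counts ran from 14 to 21 in WT and from 5 to 17 in dKO when single libraries were left out. In dKO against WT at 48 h, 0 of the 21 were called, with 11 estimates above 0 and 10 below (median 0.05). At 24 h 1 of the 21 was called higher in dKO (Ube2c, 1.148, adjusted p = 0.0294) and 4 over both times (Ube2c, Cdc20, Ccnb2 and Cdk1), and none lower. Without single libraries these counts ran from 0 to 15 and from 0 to 12, with 15 at 24 h without either WT 48 h library and 0 without any other library. Of 23 S phase genes, 2 were called higher and 3 lower with time in WT (median -0.30), beside 11.4% of all genes. The 2 were Ccne1 and Cdt1, which kept near-fixed count ratios to Uhrf2. In dKO 1 was called higher and 1 lower (median -0.15), beside 3.63% of all genes. Pcna, the sliding clamp that DNMT1 binds at the fork, was at 514 to 759 CPM and not called in any comparison (time change -0.26 in WT and -0.07 in dKO). Mki67, a gene with a long transcript, was at 554 CPM in WT 48 h replicate 2 and at 111 to 174 CPM in the other 7 libraries. The ratio of Ezh2 to Pcna counts was 0.202 to 0.444 and that of Dnmt1 to Pcna counts 0.0797 to 0.253. The part of cell division in the values of the 8 enzymes was not tested.

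Genes that these marks are known to keep silent were mostly not detected well enough to test. Of 17 germline genes silenced by DNA methylation 10 were in the table and 1 passed the filter, and of 18 developmental genes under PRC2 13 were in the table and 2 passed, of which Lhx2 was called lower with time in WT (adjusted p = 0.00529), with 10 and 11 counts in WT 24 h and 1 and 3 counts in WT 48 h. Of 20 genes known to change methylation when CD8 T cells become effector cells, 18 were tested. In dKO 1 was called higher at 24 h (Ifng, 1.36, SE 0.203, adjusted p = 0.0188), beside 0.432% of all tested genes. At 48 h 1 was higher (Id2, 0.87, adjusted p = 0.0174) and 5 were lower, beside 11.2% of all tested genes. Among the 5 were the regulator of T cell traffic Klf2 (-1.42, adjusted p = 0.0147), Tox (-0.86, adjusted p = 0.0162) and Bach2 (-1.12, adjusted p = 0.0174). Bach2 has a long transcript (8882 bases), and its WT 48 h libraries lay apart, at 55.4 and 93.5 CPM. Its difference ran from -1.45 to -0.67 when single libraries were left out. The list's median was -0.21 at 24 h and -0.07 at 48 h, beside 0.007 and -0.03 for all genes.

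The effector gene Gzmb rose with time in WT (2.59, adjusted p = 0.000523) and in dKO (2.27, adjusted p = 0.000948). With time 3 of the 18 were called higher and 3 lower in WT, beside 11.4% of all tested genes. In dKO 2 were called higher and 4 lower, beside 3.63%. The genotype calls at 48 h fell to 0 without dKO 48 h replicate 1 or replicate 2, and the 24 h call of Ifng was lost without any 24 h or dKO 48 h library (adjusted p = 0.0884 to 0.331). Tcf7, a gene of naive and memory cells that DNMT3A is known to methylate in effector cells, was at 86.1 and 84.3 CPM in WT 24 h, 58.96 and 68.03 CPM in dKO 24 h, 63.4 and 64.3 CPM in WT 48 h and 54.5 and 51.6 CPM in dKO 48 h. It was lower in both dKO libraries at each time and not called (-0.43, adjusted p = 0.396, at 24 h, and -0.27, adjusted p = 0.200, at 48 h). The counts measure RNA of the enzymes and of these genes, and methylation itself was not measured.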

How the data were processed

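For 8 bulk RNA libraries, the deposited values are whole-number counts by gene symbol. Cutadapt 1.18, Bowtie2 2.2.5 and the build mm10 are named, per the submitters' processing notes. Which program counted reads, with which annotation and strand rule, is not given in the sources used here, so overlapping genes could share reads. The last entry of the table has no name and holds the column totals (50% of each column sum), and it was left out.

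EdgeR 4.0.16 in R 4.3.3 fitted all 8 libraries with a mean per group, TMM scaling and filterByExpr (minimum count 10), which kept 12742 genes. Calls needed an adjusted p (Benjamini-Hochberg, over all tested genes) below 0.05, two-sided. Beside counts at an unadjusted p below 0.05, shares of all genes are for adjusted p, since the unadjusted share was not counted. The 6 comparisons were genotype at each time and over both, the interaction of genotype and time, and time in WT and in dKO. Log2 CPM used a prior count of 2. The other settings were RLE scaling, library size alone, DESeq2 1.42.0, 2 other filters, a replicate block, the 2 groups alone and each library left out. A fit with a library left out has 1 library in that group, so its p-values take no spread from that group. Fits without both WT 48 h libraries and with a length offset (GENCODE M21) were chosen after seeing the data. The code was tested on simulated data.

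The members and the gene lists were chosen with earlier results of these data known. The text names all 8 enzymes, some fixed partners, and from each list up to 4 called genes per comparison by smallest p. A few genes that this rule names are not reported here.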

Additional observations from a re-analysis of the deposited data

How the results depend on the processing

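With 2 libraries a group, calls moved with the setting more than estimates did. Of the 8 enzymes, edgeR called 0 at 24 h (1 without both WT 48 h libraries, 2 with the length offset as well), 0 at 48 h (1 with DESeq2, 4 without a filter), 1 over both times (3 without a filter, 0 with the replicate block, 2 with the length offset), 0 in the interaction (1 without a filter), 1 for time in WT (0 with library size alone, 0 with the 2 groups alone) and 0 for time in dKO (1 with library size alone, 1 with DESeq2, 4 without a filter, 7 with the 2 groups alone, 6 without both WT 48 h libraries, 4 with the length offset as well). Leaving out single libraries gave 0 to 2, 0 to 6, 0 to 7, 0 to 5, 0 to 5 and 0 to 6 called enzymes in the same order. Over all genes, the count of 55 at 24 h became 206 without a filter, 181 with the 2 groups alone, 348 without both WT 48 h libraries, 96 with the length offset and 370 with both. The count of 1430 at 48 h became 2531 with library size alone, 2962 without a filter and 444 with the 2 groups alone, that of 994 over both times became 2264 without a filter, and that of 0 in the interaction 170 without a filter. The count of 1449 for time in WT became 3366 with library size alone and 31 with the 2 groups alone. That of 463 for time in dKO became 739 with library size alone, 1649 without a filter, 4546 with the 2 groups alone, 3216 without both WT 48 h libraries, 879 with the length offset and 2626 with both. Leaving out single libraries gave 13 to 371, 15 to 6521, 56 to 5606, 0 to 3459, 595 to 4212 and 32 to 3303 genes. Scaling by library size alone shifted the median of all genes by 0.18 at 48 h, 0.19 in the interaction, -0.36 for time in WT and -0.17 for time in dKO. It changed the split of higher and lower calls from 406 and 1024 to 1615 and 916 at 48 h, from 1003 and 446 to 725 and 2641 for time in WT, and from 224 and 239 to 143 and 596 for time in dKO.

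The sign turned with library size alone for Dnmt3a at 48 h (0.029), for Dnmt3b (0.12) and Uhrf1 (0.028) in the interaction, and for Dnmt1 (-0.24), Tet2 (-0.078) and Tet3 (-0.32) with time in WT. It turned with the length offset for Dnmt3a at 48 h (0.41), Dnmt3b in the interaction (0.068) and Tet3 with time in WT (-0.067), and with the replicate block for Tet3 with time in WT (-0.0060). Leaving out single libraries gave ranges that crossed 0 at 24 h for Dnmt1 (-0.065 to 0.11), Tet1 (-0.083 to 0.17), Tet2 (-0.13 to 0.29) and Tet3 (-0.10 to 0.15), at 48 h for Dnmt3a (-0.42 to 0.21), and over both times for Dnmt1 (-0.62 to 0.00020). They also crossed 0 in the interaction for Dnmt3b (-0.20 to 0.093) and Uhrf1 (-0.37 to 0.12), and with time in WT for Dnmt1 (-0.64 to 0.59), Dnmt3a (-0.58 to 0.059), Uhrf1 (-0.49 to 0.0047), Tet1 (-0.41 to 0.88), Tet2 (-0.56 to 0.75) and Tet3 (-0.59 to 0.45). The cause was not tested. Same-numbered libraries did not deviate together (correlations from -0.076 to 0.172 over 6 pairings), so the numbers were not taken to pair samples. With the replicate block Ezh2 over both times had an adjusted p of 0.0622, and the block ended no other call of the 8 enzymes. Tet1, with 4 to 102 counts, is limited by depth.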
